A study of Drosophila melanogaster with 12 samples.

Results

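RNA bound to tagged ribosomes of the adult fat body was compared, gene by gene, with RNA of the whole head lysate it was pulled from. The first sample is called the fat body IP and the second the fat body Input, and each had 2 biological replicates, which the authors had combined into 1 value per gene. The genes described are those with at least 1 FPKM (fragments per kilobase of transcript, scaled to all mapped fragments) in either column, 10044 of the 15104 genes in the table (66.5%). Mst36Fa lay just inside this limit, with 0.444 FPKM in the IP and 1.002 FPKM in the Input, and CG13502 just outside it, with 0.701 and 0.9996 FPKM. Of these, 36 were listed at 0 in one column and were given no ratio, so that 10008 genes were used.

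The fat body flies carried UAS-GFP-L10A/+ with takeout-Gal4/+, which drives the green fluorescent protein fused to ribosomal protein L10A in the fat body. The neuron flies carried Elav-Gal4/+ with UAS-GFP-L10A/+ and the glia flies repo-Gal4/+ with UAS-GFP-L10A/+, so every group carried the tagged protein and no group without it was used. All flies were adults of the 2202U background, with no treatment named, and neither their sex nor their age in days was given. Lysate was made from 1000 heads, an Input was set aside, and the tagged ribosomes were recovered with an antibody against GFP in 4 technical replicates that were pooled for each biological replicate. The driver fixes which cells bear the tag, and a head holds fat body beside brain, eye, muscle and cuticle, so the Input is a mixture in which the fat body is 1 tissue of many.

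The fat body is the insect organ that combines functions of vertebrate liver and adipose tissue. It stores fat and glycogen, makes the blood sugar trehalose, secretes lipoproteins, storage proteins and yolk into the hemolymph, and releases antimicrobial peptides when the Toll and Imd pathways are active. It also senses nutrients and sends peptide hormones to the brain and other organs. Enrichment in such a purification is read as an IP/Input ratio, which reflects the amount of a messenger RNA that is on ribosomes of the tagged cells relative to its amount in all cells of the head.

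Ratios are given as log2 of (IP + 1)/(Input + 1), and a gene is said to have risen or fallen where this was at least 2-fold up or down. With 1 combined value per group there was no spread between replicates and no test of IP against Input, and the depth behind the FPKM values is unknown. On this scale 3056 of the 10008 genes (30.5%) rose and 1133 (11.3%) fell, with a median of 0.27 and with 10% of genes under -1.08 and 10% over 1.88. Of the genes used, 203 were under 1 FPKM in the Input and passed only through the IP, and 726 passed only through the Input, so their direction was favoured by the filter. At least 4-fold rises were seen in 843 genes (8.42%), against 157 falls of that size. The FPKM values did not share a total: they summed to 1704813 in the IP and 578807 in the Input, 2.95 times as much. Scaling the columns to the same median ratio, over genes of at least 5 FPKM in both, takes up to 0.75 from a log2 value. Scaling them to the same total without ribosomal protein genes takes up to 1.49. Less is taken at low FPKM, because 1 is added after the scaling. The counts then become 1278 higher and 2434 lower under median scaling, and 454 higher and 4284 lower under total scaling. A log2 value between 0 and 1.49 can therefore turn negative with the scaling, and gene groups whose median does so are pointed out.

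The tagged protein's own gene gave a large difference. RpL10Ab, which encodes ribosomal protein L10A, stood at 44378 FPKM in the fat body IP, against 2273 FPKM in the Input (log2 4.29), with 7705 FPKM in the neuron IP and 21969 FPKM in the glia IP. It exceeded all other cytosolic ribosomal protein genes, whose ratios spanned -0.46 to 2.45 in log2. Whether part of its count came from the transgene's own transcript was not tested. The gene of the driver, to (takeout, a secreted juvenile hormone-binding family protein), had 44.4 FPKM in the IP and 12.5 FPKM in the Input (log2 1.75). It was no higher than the 55.8 FPKM of the glia IP, and above the 9.57 FPKM of the neuron IP. The neuronal RNA-binding protein gene elav had 1.88 FPKM in the IP and 7.55 FPKM in the Input (log2 -1.57), and the glial homeobox gene repo had 20.9 and 20.6 FPKM (log2 0.02, negative under both scalings).

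Markers of the fat body rose as a group. Of 20 marker genes with a ratio, 17 rose and 0 fell, with a median log2 of 1.72 beside 0.27 for all genes used. Examples are the amine methyltransferase gene CG6188 (Gnmt, glycine N-methyltransferase; log2 3.72), the perilipin gene Lsd-1, whose protein coats lipid droplets (3.00), the iron carrier gene Tsf1 (transferrin; 3.01) and the GATA factor gene srp (1.48). The 3 exceptions were the lipase gene bmm (53.1 FPKM in the IP, 29.9 FPKM in the Input), Cyp4d21 (28.8 and 30.2 FPKM) and Cyp4g1 (7.54 and 14.5 FPKM), both cytochrome P450 genes. A further marker, the alcohol dehydrogenase gene Adh, was listed at 0 in the IP. By the authors' deposited table, 17 of the 20 were higher than in both the neuron IP and the glia IP at q under 0.05, as were 11.0% of all genes used. In head RNA, fewer fat body cells and less RNA per fat body cell cannot be told apart, so an IP/Input ratio gives no number of cells.

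**Figure D1:**
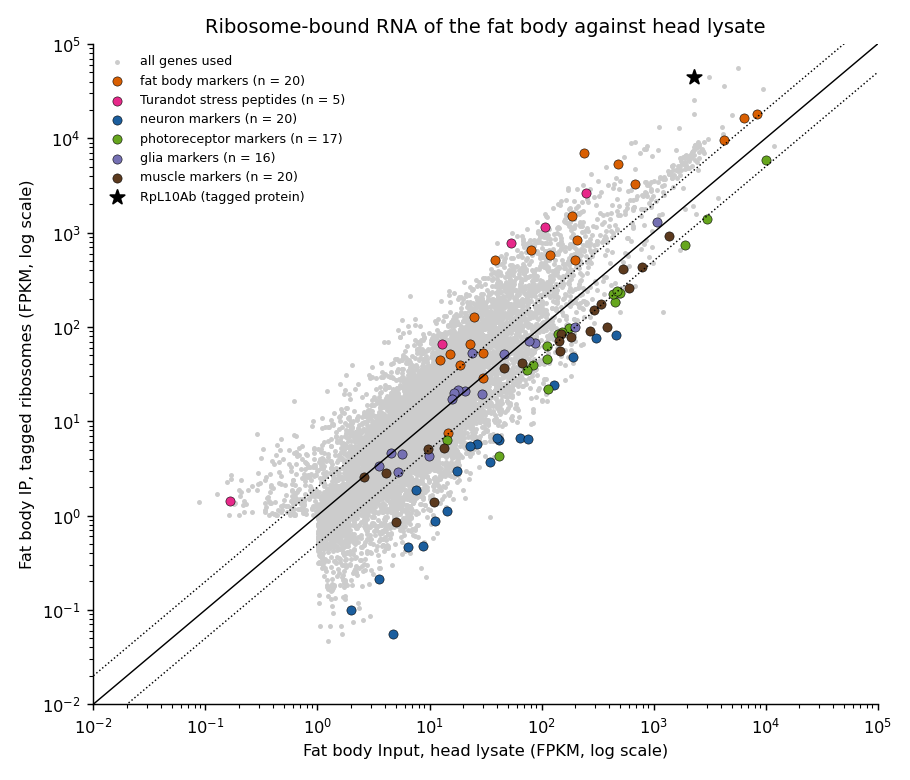
Each point is a gene, with its FPKM in the fat body Input on the horizontal axis and in the fat body IP on the vertical axis, both on log scales; the solid line marks equal values and the dotted lines a 2-fold difference. Fat body markers and Turandot genes lie mostly above the upper dotted line, all 20 neuron markers lie below the lower one, and RpL10Ab (star) stands at 44378 FPKM in the IP.

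Markers of neurons, photoreceptors, muscle and hemocytes had negative medians. All 20 neuron markers fell, 6 of which passed the filter only through the Input, with a median of -2.39. Their summed level was 280 FPKM in the IP against 1475 FPKM in the Input. This fall was not particular to the fat body: 16 of the 20 fell in the neuron IP/Input (median -2.35) and 19 in the glia IP/Input (median -2.58). Of 17 photoreceptor markers 10 fell and 0 rose (median -1.07), yet their sum stayed at 9337 FPKM in the IP against 17864 FPKM in the Input. Muscle markers (20 genes, 9 fell, 0 rose) had a median of -0.97, and 1 of the 9 passed the filter only through the Input. All 21 muscle list genes in the table summed to 2920 FPKM in the IP and 5383 FPKM in the Input. Glia markers (16 genes) behaved differently, with 1 that rose (the citrate transporter gene Indy, log2 1.10), 1 that fell and a median of -0.02. The 17 glia list genes in the table summed to 1740 FPKM in the IP and 1626 FPKM in the Input. As the columns differ in total, this was 0.102% of all FPKM in the IP and 0.281% in the Input. The median of the 16 lies further below 0 under both scalings. The part of glial messages in the results was not tested. Hemocyte markers (10 genes) had a median of -0.73, but only 1 fell, a share near the 11.3% of all genes, and 0 rose. All 12 hemocyte list genes in the table summed to 107 FPKM in the IP and 171 FPKM in the Input. The hemocyte gene Hml (hemolectin) had 1.96 and 4.67 FPKM.

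**Figure D2:**
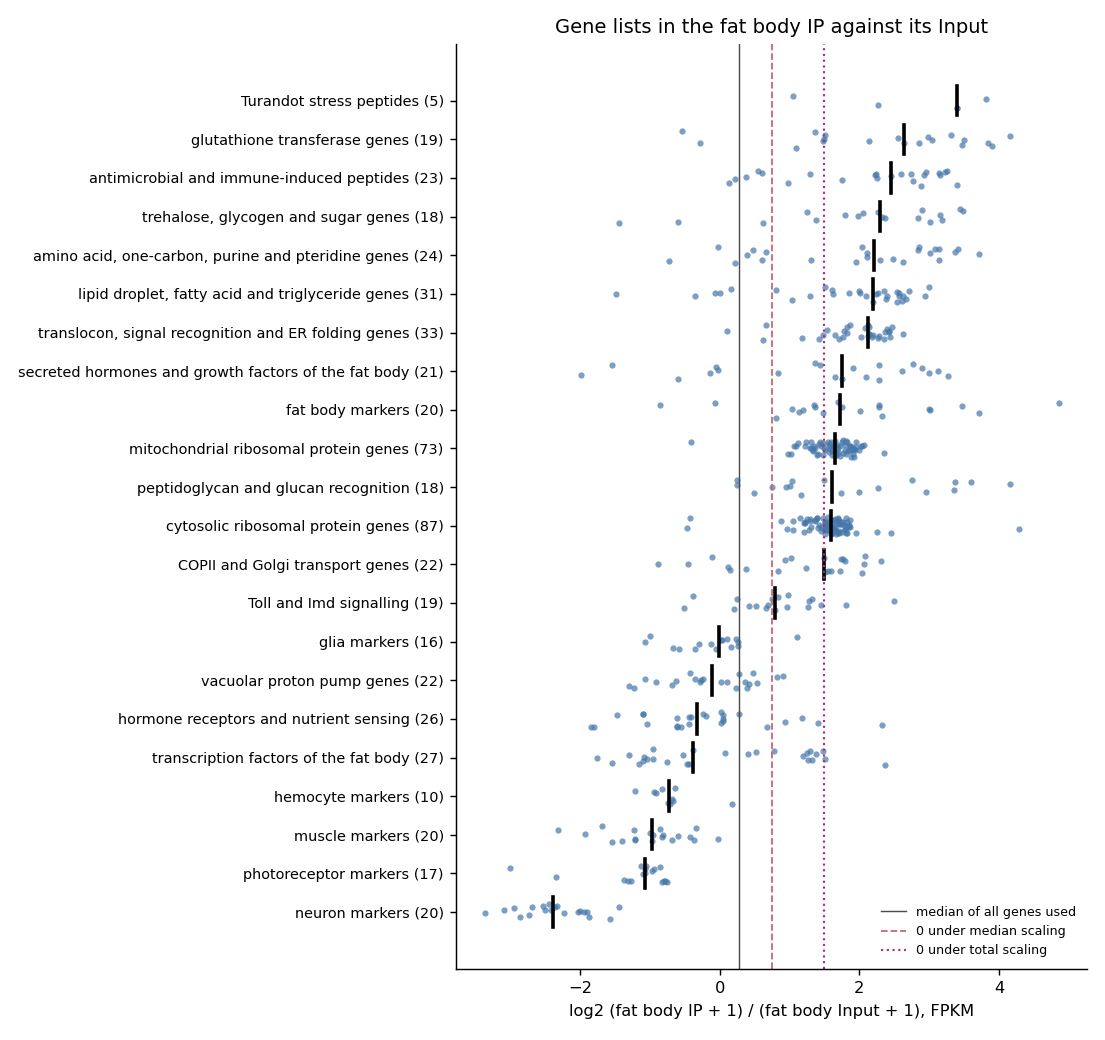
Each point is a gene, by its log2 (fat body IP + 1)/(fat body Input + 1) in FPKM on the horizontal axis. Each row is a gene list with its number of genes. The black bar is the list's median, and the solid vertical line the median of all genes used (0.27). The broken lines mark where 0 would lie at high FPKM under median (0.75) and total scaling (1.49). List medians run from 3.39 for the Turandot genes (TotB included) down to -2.39 for the neuron markers.

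Some single genes took large shares of the purified RNA. The 10 highest made up 18.1% of all FPKM in the IP and 8.49% in the Input, and cytosolic ribosomal protein genes together made up 32.5% and 29.2%. Without RpL10Ab these shares were 29.9% and 28.8%. First came Nplp2, a neuropeptide-like precursor, with 54996 FPKM in the IP and 5705 FPKM in the Input (log2 3.27). CG6503 came next with 44633 and 3127 FPKM (3.83), level with RpL10Ab. The metallothionein gene MtnA, whose product binds copper and other metals, had 35469 FPKM in the IP and 4257 FPKM in the Input (3.06). The bomanin gene CG15068 (BomS6), an immune peptide gene, had 25686 and 2273 FPKM (3.50). Obp99c, of the odorant-binding protein family, had 13019 and 1116 FPKM (3.54). That family did not rise as a group: of its 23 genes used 5 rose and 1 fell (median 0.0075), beside 30.5% and 11.3% of all genes. In the glia IP/Input 13 of the 23 rose (median 1.88).

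The steepest ratios belonged to other genes. Obp99b, also of the odorant-binding protein family, headed all genes with at least 5 FPKM in either column, with 6963 FPKM in the IP and 239 FPKM in the Input (log2 4.86), against 371 FPKM in the neuron IP and 91.9 FPKM in the glia IP. CG1678 (whe) came next with 215 FPKM in the IP and 6.73 FPKM in the Input (4.80), then RpL10Ab and CG43071 (4.25). The other genes of the highest 20 included the glutathione transferase gene GstE7 (4.16), the peptidoglycan-degrading amidase gene PGRP-SC2 (4.16), the NPC2-family lipid carrier genes Npc2g (4.02) and Npc2h (3.84), and nimC3 (3.86), a nimrod-family gene. Most of the others carry a CG number, and no role is given for those.

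Stored and yolk proteins differed in their ratios. Larval serum proteins are amino acid stores made by the larval fat body, and yolk proteins are made by the female fat body for the egg. Lsp2 had 5338 FPKM in the IP and 482 FPKM in the Input (log2 3.47), Lsp1beta 913 and 98.2 FPKM (3.20) and Lsp1alpha, which passed the filter only through the IP, 4.95 and 0.460 FPKM (2.03), while Lsp1gamma, Fbp1 and Fbp2 stayed under 1 FPKM in both columns. The yolk protein genes were far more abundant but less enriched: Yp1 had 18284 FPKM in the IP and 8361 FPKM in the Input (1.13), Yp2 9633 and 4213 FPKM (1.19) and Yp3 16396 and 6442 FPKM (1.35). These 3 ratios turn negative when the columns are scaled to the same total, whereas those of the 3 serum protein genes do not. Each yolk gene was more than 4-fold higher in the fat body IP than in the neuron IP and the glia IP, where Yp1 had 2368 and 2882 FPKM.

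Of 16 genes of sex bias and sex determination 8 rose and 2 fell, with a median of 0.87 that is negative under total scaling. The satiety hormone gene fit, female-biased in the fat body of the head, had 3301 FPKM in the IP and 679 FPKM in the Input (log2 2.28), and Obp99a had 1180 and 231 FPKM (2.35). The sex switch genes did not move together. The splicing gene tra2 rose (1.27), dsx and tra had 0.41 and 0.39, and fru and Sxl fell (-2.06 and -1.38). The sexes of the flies in each library were not given, so a difference in the share of females between groups cannot be told apart from one between tissues for the comparisons with the neuron IP and the glia IP.

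Genes of fat storage and fatty acid metabolism rose in most cases, 25 of 31, with 1 that fell and a median of 2.2. They covered synthesis, storage and oxidation. Among genes of synthesis, the acetyl-CoA synthetase gene AcCoAS had 1296 FPKM in the IP and 222 FPKM in the Input (log2 2.54), Men, the malic enzyme that supplies NADPH, 1062 and 182 FPKM (2.54), and the fatty acid desaturase gene desat1 2789 and 593 FPKM (2.23). In storage, Lsd-1 had 653 FPKM in the IP and 80.6 FPKM in the Input. Genes of mitochondrial beta-oxidation also rose, with 871 and 112 FPKM for the thiolase gene yip2 (2.94) and 358 and 55.6 FPKM for CG4389 (Mtpalpha, a trifunctional protein subunit; 2.66). The SREBP transcription factor gene HLH106 rose (1.51). The lipin gene Lpin (0.01), the elongase gene Baldspot (-0.07) and v(2)k05816 (FASN2, a fatty acid synthase; -0.36) did not pass 2-fold, and CG3812 (Agpat1, an acyltransferase) fell (-1.48). The same 31 genes had medians of -0.53 in the neuron IP/Input and 0.02 in the glia IP/Input.

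Of 16 lipoprotein and sterol transport genes 9 rose, 1 of which passed the filter only through the IP, and 1 fell, with a median of 1.08 that becomes -0.25 under total scaling and 0.12 with length centring. The microsomal transfer protein gene Mtp, which loads lipid on lipoproteins, had 75.2 FPKM in the IP and 13.5 FPKM in the Input (log2 2.40). Rfabg (apolpp), the lipophorin precursor, had 515 and 198 FPKM (1.37) and CG15828 (Apoltp), the lipid transfer particle, 39.3 and 18.6 FPKM (1.03), values that become -0.11 and -0.39 under total scaling. Both were over 10-fold higher than in either other IP, where Rfabg had 25.0 FPKM in the neuron IP and 29.4 FPKM in the glia IP. The lipophorin receptor gene LpR2 fell (3.71 and 15.4 FPKM, -1.80), and LpR1 had 8.19 and 16.7 FPKM (-0.95). The sterol transport genes Npc1a (-0.37) and Npc2a (0.72) did not pass 2-fold, unlike their relatives Npc2g and Npc2h above.

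Sugar metabolism showed 15 of 18 genes up and 1 down, with a median of 2.29. Enzyme genes between glucose phosphate and trehalose or glycogen rose. Tps1, which makes trehalose phosphate, had 2096 FPKM in the IP and 231 FPKM in the Input (log2 3.18), UGP (UDP-glucose pyrophosphorylase) had 1108 and 136 FPKM (3.01), Pgm (phosphoglucomutase) 962 and 192 FPKM (2.32) and CG33138 (AGBE, the glycogen branching enzyme) 841 and 93.2 FPKM (3.16). Genes of glycogen breakdown and glucose synthesis rose too: GlyP (glycogen phosphorylase) reached 2.06, Pepck 2.84 and fbp (fructose bisphosphatase) 2.89. The hexokinase genes went opposite ways, with 538 FPKM in the IP and 47.3 FPKM in the Input for Hex-C (3.48), and 23.9 and 66.4 FPKM for Hex-A (-1.44). The insulin-responsive alpha-glucosidase gene tobi rose (3.44), and the sugar-responsive transcription factor gene sug (sugarbabe) rose (2.37) along with Mio (Mondo, 1.38) and its partner bigmax (1.25). Treh, which splits trehalose (0.62), and Glycogenin, the glycogen primer (-0.60), did not pass 2-fold. By the authors' deposited table, 13 of the 18 were higher than in both other IPs, as were 11.0% of all genes used.

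A pair of galactose enzymes was picked after their values were seen. Galk (galactokinase) had 713 FPKM in the IP and 81.8 FPKM in the Input (log2 3.11), and Galt (the uridylyltransferase) had 1131 and 102 FPKM (3.45).

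Of 24 genes of amino acid, purine and pteridine metabolism 17 rose and 0 fell (median 2.21). Several of those that rose act on glycine, folate and purines. CG3011 (Shmt, serine hydroxymethyltransferase) had 2593 FPKM in the IP and 250 FPKM in the Input (log2 3.37). CG6188 (Gnmt), which methylates glycine, had 517 and 38.4 FPKM (3.72) and CG6385 (Sardh), which returns sarcosine to glycine, 84.4 and 8.67 FPKM (3.14). The folate dehydrogenase gene Nmdmc had 469 and 43.2 FPKM (3.41). Purine synthesis genes ade5 (Paics), ade3 (Gart) and ade2 (Pfas) reached 3.14, 3.09 and 2.30, and Prat, of the first purine step, had 0.60. Eye pigment and biopterin genes on the list differed: the tryptophan oxygenase gene v rose (2.63), but the GTP cyclohydrolase gene Pu (0.22) and pr (0.48) did not. Nor did Gdh (glutamate dehydrogenase; 267 FPKM in the IP and 271 FPKM in the Input) or Argk, the arginine kinase gene (553 and 915 FPKM).

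A fuller set of 15 glycine, folate and purine enzymes was drawn up after values were seen and is a description. Of these 14 rose, between 2.30 and 3.82, with CG34424 (Mthfs, a folate enzyme) highest at 1292 FPKM in the IP and 90.4 FPKM in the Input. The glycine cleavage gene ppl had 1574 and 166 FPKM (3.24), pug, the cytosolic folate synthase, 659 and 82.8 FPKM (2.98) and Spat (Agxt, a glyoxylate aminotransferase) 800 and 89.3 FPKM (3.15). The first step of purine synthesis has a pair of genes. Prat2 had 818 FPKM in the IP and 78.7 FPKM in the Input (3.36), whereas Prat had 5.43 and 3.24 FPKM (0.60). The 15 genes had medians of -0.77 in the neuron and -0.83 in the glia IP/Input. By the authors' deposited table, 14 of them were higher than in both other IPs, as were 11.0% of all genes used. Of 6 proline and arginine enzymes chosen in the same way 5 rose, among them CG7470 (P5CS, proline synthesis; 1653 and 191 FPKM, 3.11) and CG9510 (Argl, argininosuccinate lyase; 3.31). The proline-degrading slgA fell (40.4 and 105 FPKM, -1.35).

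**Figure D3:**
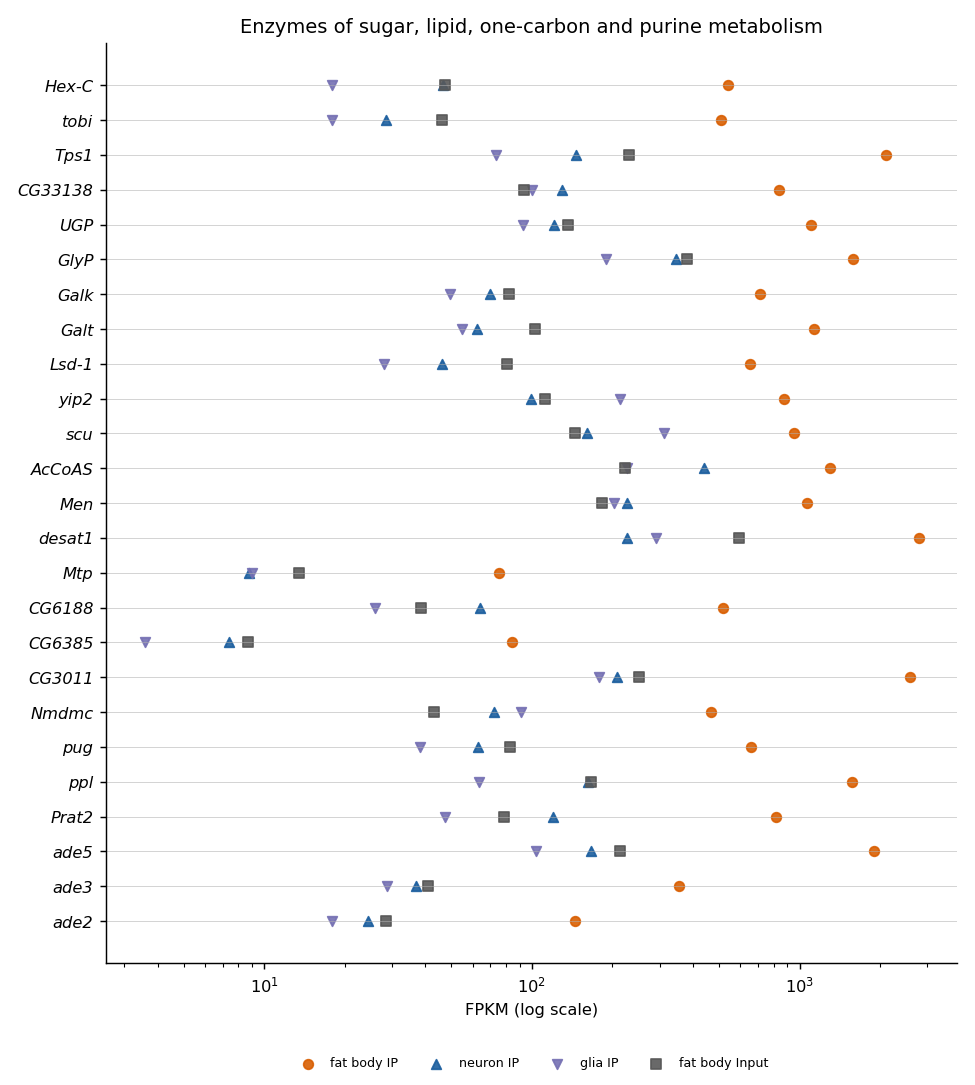
Levels in FPKM (horizontal log axis) of 25 enzyme and lipid droplet genes of sugar, lipid, glycine, folate and purine metabolism, as the authors' combined value in the fat body IP (circles), the neuron IP (upward triangles), the glia IP (downward triangles) and the fat body Input (squares). In each row the fat body IP has the highest value, from 75.2 FPKM for Mtp to 2789 FPKM for desat1.

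Genes that bring proteins into the secretory pathway rose with few exceptions. Of 33 genes of the signal recognition particle, the Sec61 translocon and protein folding in the endoplasmic reticulum 30 rose and 0 fell (median 2.12). By the authors' deposited table, 22 of the 33 were higher than in both other IPs, as were 11.0% of all genes used. The pore subunit genes Sec61beta and Sec61gamma had 1234 and 630 FPKM in the IP against 222 and 130 FPKM in the Input (log2 2.47 and 2.26). The translocon-associated gene Tapdelta had 595 and 110 FPKM (2.43), the signal recognition particle gene Srp14 290 and 52.6 FPKM (2.44) and Crc (calreticulin), a lectin chaperone of the endoplasmic reticulum, 611 and 139 FPKM (2.13). The chaperone genes Hsc70-3 (BiP, 0.66) and Cnx99A (calnexin, 0.10) and prtp (0.62) did not pass 2-fold. Further along the pathway, 14 of 22 genes of COPII vesicles and Golgi transport rose and 0 fell (median 1.5), led by the coat gene sec13 (2.31) and the p24 cargo receptor genes loj (2.07), eca (2.07) and CHOp24 (2.04). Large scaffold genes of exit sites did not: Tango1 had -0.11 and Sec16 -0.46.

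Peptide hormones and growth factors made by the fat body showed 14 of 21 genes up and 2 down (median 1.75). Of the 2 that fell, 1 passed the filter only through the Input. CCHa2, which signals nutrition to the insulin-producing cells, had 582 FPKM in the IP and 119 FPKM in the Input (log2 2.28). The growth-blocking peptide gene CG11395 (Gbp2) had 282 and 31.6 FPKM (3.12). Growth factors related to chitinases included CG5210 (Idgf6) with 1260 and 168 FPKM (2.90) and Idgf5 with 69.6 and 7.82 FPKM (3.00). Of genes named after their values were seen, Ilp6, an insulin-like peptide, had 141 and 36.9 FPKM (1.91), and daw (dawdle), an activin-type ligand, had 59.3 and 18.3 FPKM (1.65). The activin-type Actbeta (-1.54) and the growth factor gene Pvf3 (-1.99) fell, and CG3837 (Sdr), a secreted insulin receptor decoy, had 2.45 and 2.79 FPKM, against 20.7 FPKM in the glia IP.

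**Figure D4:**
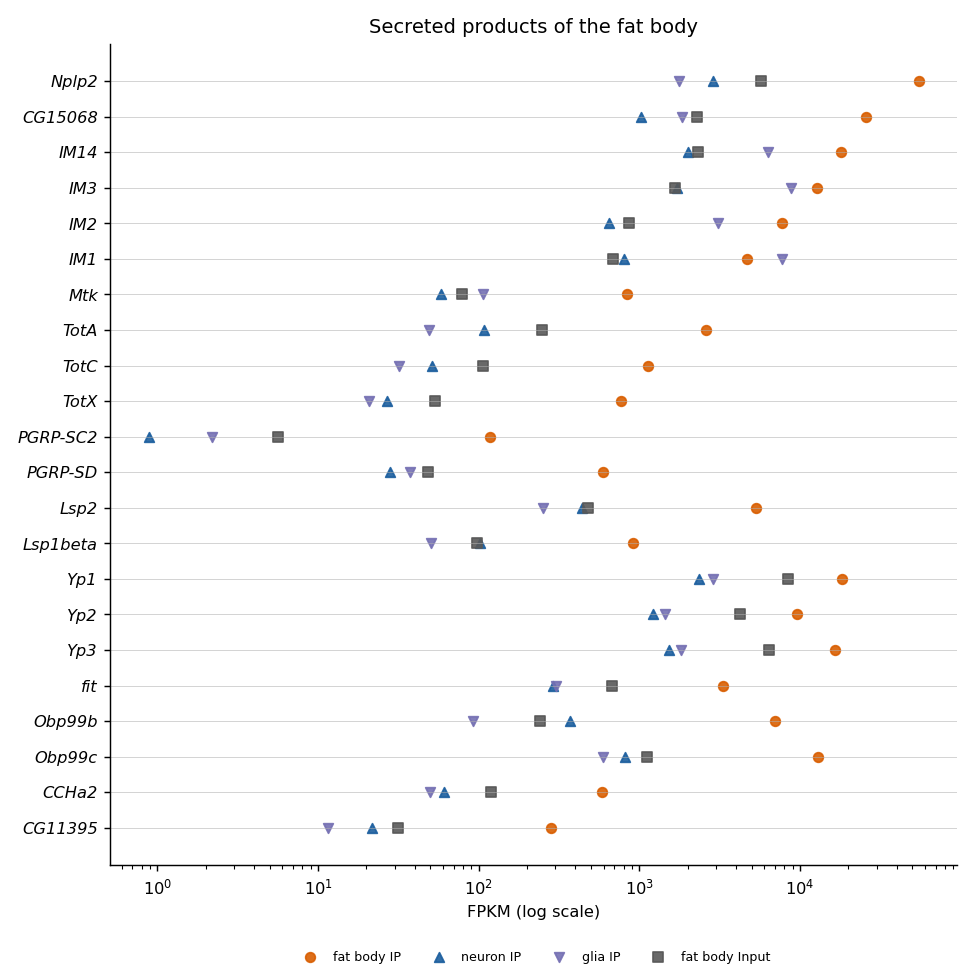
Levels in FPKM (horizontal log axis) of 22 genes for secreted proteins, as the authors' combined value in the fat body IP (circles), the neuron IP (upward triangles), the glia IP (downward triangles) and the fat body Input (squares). The fat body IP is highest in every row but IM1, where the glia IP has 7776 FPKM and the fat body IP 4686 FPKM.

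Of 26 genes of hormone reception and nutrient sensing 3 rose and 6 fell, with a median of -0.32, beside 30.5% that rose and 11.3% that fell among all genes used. Of the 6, 2 passed the filter only through the Input, InR and oa2. The adipokinetic hormone receptor gene, listed as GRHR (AkhR) and known for triggering fat release, had 128 FPKM in the IP and 24.8 FPKM in the Input (log2 2.32), against 12.2 FPKM in the neuron IP and 6.91 FPKM in the glia IP. Rheb, an activator of TOR, and Thor, the translation repressor downstream of it, rose by less (1.41 and 1.17). The insulin receptor gene InR had 0.134 FPKM in the IP and 1.43 FPKM in the Input (-1.10) and the octopamine receptor gene oa2 0.477 and 4.3 FPKM (-1.84). Of the 27 fat body transcription factors 9 rose, a share near the 30.5% of all genes, and 7 fell, beside 11.3% of all genes, 2 of them having passed only through the Input. Their median was -0.38. Those that rose included srp and the NF-kappaB gene Rel (1.26), and those that fell included the nuclear receptor gene ftz-f1 (-1.76), Smr (-1.55) and Eip75B (-1.16). These lists hold long transcripts, with median lengths of 4200 bases for the receptors and 4724 bases for the transcription factors. Centred on genes of like length their medians were 0.05 and 0.17.

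Immune genes are given from recognition to effector. Of 18 genes for recognition of peptidoglycan and glucan 13 rose and 0 fell (median 1.61). Of the same 18, 12 rose in the glia IP/Input (median 1.15) and 0 in the neuron IP/Input (median -0.08). The circulating recognition protein gene PGRP-SD had 596 FPKM in the IP and 48.5 FPKM in the Input (log2 3.59), the amidase gene PGRP-SB1 225 and 21.2 FPKM (3.35) and CG13422 (GNBP-like3) 205 and 19.1 FPKM (3.36). The membrane receptor gene PGRP-LC, which starts the Imd pathway, had 29.4 and 17.0 FPKM (0.75). Of 19 genes of Toll and Imd signalling 6 rose and 0 fell, a share of rises near the 30.5% of all genes, and their median of 0.79 becomes -0.56 under total scaling. In the glia IP/Input 8 of the 19 rose (median 0.76). The adaptor imd (1.81), the serpin gene nec (2.49) that holds Toll in check, and the kinase gene pll (1.32) were among the 6. The Toll receptor gene Tl (-0.52) and the NF-kappaB gene dl (-0.38) were not.

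At the far end of the pathway, 17 of 23 genes of antimicrobial and immune-induced peptides rose and 0 fell (median 2.45). Mtk (metchnikowin) had 839 FPKM in the IP and 78.3 FPKM in the Input (log2 3.40). Of peptides named after their values were seen, Drs (drosomycin) had 771 and 86.9 FPKM (3.13) and Def (defensin) 171 and 22.2 FPKM (2.89). Not all of them rose: Listericin had 114 and 104 FPKM (0.13), CecA1 2.67 and 1.52 FPKM and CecC 2.09 and 1.38 FPKM. The glia IP held many of these messages as well. Listericin had 423 FPKM there, and IM1 (BomS1) 7776 FPKM against 4686 FPKM in the fat body IP. By the authors' deposited table, 7 of the 23 were lower in the fat body IP than in the glia IP, as were 13.3% of all genes used. Higher than in both other IPs were 11 of the 23, beside 11.0% of all genes used.

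Bomanins and daisho peptides, small Toll-induced products, were grouped by current symbol after values were seen. All 15 rose, between 2.45 and 3.50, and together they made up 5.09% of FPKM in the IP and 1.70% in the Input. IM14 (Dso2) had 17883 FPKM in the IP and 2308 FPKM in the Input, IM3 (BomS3) 12701 and 1675 FPKM, and IM4 (Dso1) 7765 and 830 FPKM. Their median was -0.27 in the neuron IP/Input and 1.78 in the glia IP/Input.

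The Turandot genes encode secreted stress peptides. Of 5 with at least 1 FPKM in either column, TotB passed only through the IP, and the other 4 rose. TotA had 2616 FPKM in the IP and 248 FPKM in the Input (log2 3.39), TotC 1138 and 107 FPKM (3.40), TotX 768 and 53.4 FPKM (3.82) and TotM 66 and 12.9 FPKM (2.27). TotB was at 1.41 and 0.166 FPKM (1.05), and TotF, TotZ and Victoria (TotE) were under 1 FPKM in both. All 8 Turandot genes in the table summed to 4590 FPKM in the fat body IP, against 191 FPKM in the neuron IP and 111 FPKM in the glia IP. In the authors' deposited table, all 5 with a ratio were higher than in both other IPs, as were 11.0% of all genes used.

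Of 16 serpin, complement-like and melanization genes 10 rose and 0 fell (median 1.52). Rises in the glia IP/Input were 9 of the 16 (median 1.35), and 0 in the neuron IP/Input (median -0.26). The clotting gene fon (fondue) had 380 FPKM in the IP and 55.2 FPKM in the Input (log2 2.76), and the protease inhibitor genes Spn43Ab and Spn88Eb reached 2.55 and 2.64. The thioester protein gene TepII (Tep2) rose (1.87), whereas TepIV (0.28) and TepIII (-0.06) did not. The prophenoloxidase genes proPO-A1 (-0.72) and CG8193 (PPO2, -0.83), known from blood cells, had lower values in the IP than in the Input.

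Detoxification genes were counted by family. Of 19 glutathione transferase genes 17 rose, 2 of which passed the filter only through the IP, and 0 fell (median 2.64), among them GstD1 with 3793 FPKM in the IP and 461 FPKM in the Input (log2 3.04) and GstE9 with 2145 and 148 FPKM (3.85). GstE2 (31.5 and 38.7 FPKM) and GstE4 (1.02 and 1.95 FPKM) did not rise. Of the same 19 genes, 12 rose in the glia IP/Input (median 1.78) and 3 in the neuron IP/Input (median 0.47). Of 67 cytochrome P450 genes 34 rose and 0 fell, with a median of 1.14 that becomes -0.17 under total scaling. The most enriched was Cyp309a1, with 917 FPKM in the IP and 66.6 FPKM in the Input (3.76), against 25.8 FPKM in the neuron IP and 6.83 FPKM in the glia IP. The insecticide-resistance gene Cyp6g1 had 313 and 66.5 FPKM (2.22). In the glia IP/Input 34 of the 67 rose (median 1.02), and in the neuron IP/Input 0 did (median -0.29). By the authors' deposited table, 21 of the 67 were higher than in both other IPs and 22 were lower than in the glia IP. Among all genes used these shares were 11.0% and 13.3%. Among 7 genes of the UDP-glucuronosyltransferase family 2 rose, a share near that of all genes, Ugt86Dd highest (2.18), and their median of 0.44 is negative under both scalings. In the glia IP/Input 5 of the 7 rose (median 1.65).

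Of 22 iron and antioxidant genes 14 rose and 0 fell (median 1.48). Rises in the glia IP/Input were 12 of the 22 (median 1.13), and 5 in the neuron IP/Input (median 0.26). The transferrin gene Tsf1, which carries iron in the hemolymph, had 1496 FPKM in the IP and 185 FPKM in the Input (log2 3.01). The metallothionein gene MtnD rose (3.64) but MtnB did not (8.72 and 9.03 FPKM). The peroxiredoxin gene Jafrac1 had 2960 and 433 FPKM (2.77) and the superoxide dismutase gene Sod 2806 and 626 FPKM (2.16). The extracellular dismutase gene CG9027 (Sod3) had 72.7 FPKM in the IP and 77.7 FPKM in the Input, against 533 FPKM in the glia IP.

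Of 87 cytosolic ribosomal protein genes 83 rose and 0 fell (median 1.6), and the median with length centring was 0.57. After RpL10Ab the highest levels were those of RpL41 (33424 FPKM in the IP and 9432 FPKM in the Input, log2 1.83) and RpL39 (17677 and 4967 FPKM, 1.83). The low-level copies RpL10Aa (1.12 and 1.92 FPKM) and RpS28-like (0.754 and 1.36 FPKM) did not rise, and reads of such near-identical copies may have been split between them by the counting. By the authors' deposited table, 80 of the 87 were higher than in both other IPs, as were 11.0% of all genes used. All 93 list genes in the table summed to 554165 FPKM in the fat body IP, 147847 FPKM in the neuron IP and 177084 FPKM in the glia IP. No rescaling between the IPs was made, so such counts rest on the scaling of the deposited columns. Mitochondrial ribosomal protein genes looked alike in the IP/Input, with 71 of 73 up and a median of 1.65. Set against the neuron IP, however, 0 of the 73 were higher at q under 0.05 in the authors' deposited table, beside 13.3% of all genes used. The q-values are from Cuffdiff, and the table holds no unadjusted p. The median of the 73 in the neuron IP/Input was 1.71.

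Translation factors had a median of 1.03, with 19 of 35 up and 2 down, which becomes -0.40 under total scaling. Elongation factor 1-alpha has a pair of genes with opposite values: Ef1alpha48D had 11055 FPKM in the IP and 4158 FPKM in the Input (log2 1.41), and Ef1alpha100E 111 and 294 FPKM (-1.40). Proteasome genes, 17 of 32 up and 0 down, had a median of 1.08 that becomes -0.38 under total scaling. Subunits of the vacuolar proton pump, 0 of 22 up and 3 down, had a median of -0.11.

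Transcript length moved with the ratio. Lengths of the longest annotated transcript were found for 9430 of the 10008 genes (94.2%). Genes of 501 to 1000 bases (1496 genes) had a median log2 of 1.03, and 50.9% of them rose. Genes over 4000 bases (1598 genes) had a median of -0.76, with 4.57% that rose and 39.1% that fell. Spearman's rho between length and log2 was -0.45 across genes, which do not count as replicates, and it was -0.35 in the neuron and -0.34 in the glia IP/Input. The neuron markers are long (median 6102 bases) and the antimicrobial peptide genes short (424 bases). After each gene was centred on genes of like length, the medians were 1.87 for fat body markers, 1.79 for lipid genes, 1.94 for sugar genes, 1.90 for amino acid genes, 1.82 for antimicrobial peptides, 1.32 for the translocon list and -1.68 for neuron markers. The lipoprotein list had 0.12 and the hemocyte markers -0.02. The part of length in each gene's value was not tested further.

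**Figure D5:**
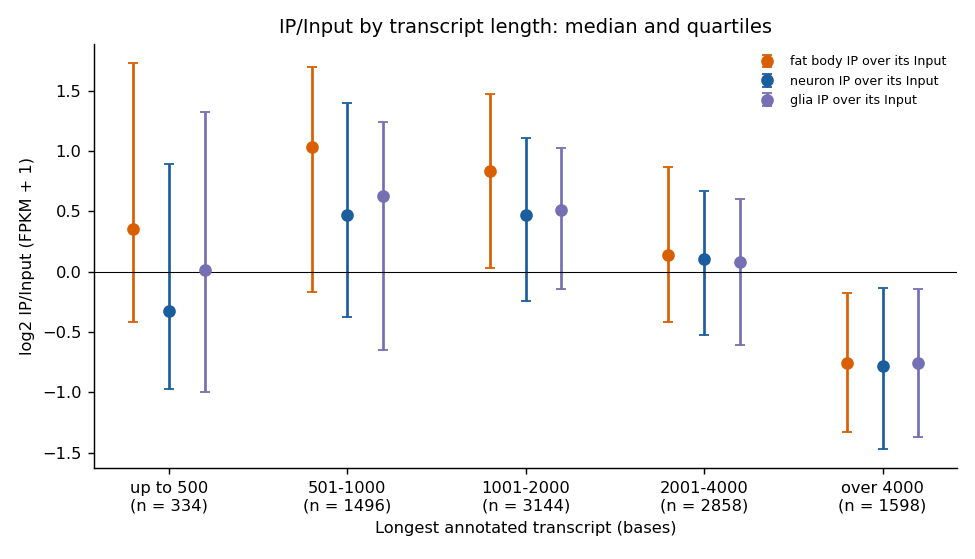
Median log2 IP/Input (points) with the lower and upper quartiles (bars) for genes grouped by the length of their longest annotated transcript, in the fat body, the neurons and the glia. The 5 length groups run from up to 500 bases to over 4000 bases, and medians in the fat body are 0.35, 1.03, 0.84, 0.14 and -0.76.

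The 12 lowest log2 values among genes of at least 5 FPKM in either column lay between -4.19 and -2.94. The lowest was sif (still life), a synaptic exchange factor, with 0.969 FPKM in the IP and 34.8 FPKM in the Input (log2 -4.19). The sodium pump subunit gene nrv3 had 6.40 and 75 FPKM (-3.36), the synaptic calcium sensor gene Syt1 6.70 and 64.6 FPKM (-3.09), and the calmodulin gene Cam 145 and 1222 FPKM (-3.07). The photoreceptor kinase gene rdgA had 4.32 and 41.7 FPKM (-3.0). The other 7 were Appl, IA-2, CG31140, CG31221, CG31451 (the noncoding RNA mimi), CG32132 and CG42795. Falls were shared with the other purifications: of the 1133 genes that fell, 686 (60.5%) also fell in the neuron IP/Input, where 14.4% of the same genes fell, and 911 (80.4%) in the glia IP/Input, where 20.3% did.

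Of the 3056 genes that rose, 991 (32.4%) also rose in the neuron IP/Input, where 20.4% of the same genes rose, 962 (31.5%) in the glia IP/Input, where 19.7% did, and 1503 (49.2%) in neither. The neuron and glia ratios use other Input columns, and the difference between these shares was not tested. Between the purifications themselves, the authors' deposited table holds q-values. Among all genes used, 13.3% were higher in the fat body IP than in the neuron IP and 9.71% lower, and 35.3% were higher than in the glia IP, by the authors' deposited table at q under 0.05. Among the 843 genes with at least 4-fold rises, 128 (15.2%) also rose in the neuron IP/Input and 292 (34.6%) in the glia IP/Input. Of the 843, 598 (70.9%) were higher than in both other IPs in the authors' deposited table, as were 11.0% of all genes used. The 843 were picked for a high fat body IP value, so this share was favoured by the choice. These comparisons share the fat body IP column, and no rescaling between the IPs was made.

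Genes listed at 0 in one column were mostly small RNAs. Of the 36, 34 were at 0 in the IP and 2 in the Input, and 28 of the 34 are annotated as small nucleolar RNAs. The exception by level was Adh, listed at 0 in the fat body IP and at 6294 FPKM in the Input, with 8480 FPKM in the neuron IP and 12630 FPKM in the glia IP. Adh lies within the gene osp in the annotation used here, and osp is also listed at 0 in the fat body IP, with 8.03 FPKM in the Input. A listed 0 in such a table can be a failed estimate, so no fold change is given for Adh.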

How the data were processed

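The 12 samples were placed in 6 groups of 2 replicates by the labels. Per the submitters' processing notes, TopHat2 2.0.6, Cufflinks 2.0.2 and Cuffdiff 2.0.2 were used with the BDGP5 build. The authors deposited 1 table with an FPKM value per gene and group, already combined over both replicates, and q-values between pairs of IP groups. The annotation release, the way replicates were combined and the scaling between libraries are not given in the sources used here. FPKM divides by transcript length and by library total, so a few abundant genes or a different scaling can shift all ratios of a column, and polyA selection limits the table to polyadenylated RNA in the main.

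Genes with at least 1 FPKM in the IP or the Input were kept, and log2((IP + 1)/(Input + 1)) was computed. At least 2-fold counted as higher or lower. The q-values were used as deposited by the authors, at 0.05, with the direction read from FPKM, and a q of 1 was listed for 159 genes against the neuron IP and 118 against the glia IP, among them Ef1alpha48D. Named genes were RpL10Ab, to, elav and repo, the 20 highest and 12 lowest log2 values among genes of at least 5 FPKM in either column, the 12 highest in the IP, genes at 100 FPKM or more in one column and 0 in the other, and from each list all of up to 20 genes or otherwise the 4 highest, 4 largest rises and 4 largest falls, and the text uses a selection. Members, lists and thresholds were chosen with earlier results of these data known.

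Current symbols and transcript lengths came from a later annotation (BDGP6), matched by gene identifier for 14237 of 15104 genes. Its coordinates were used only for transcript lengths and to place Adh within osp. Symbols not found in the table numbered 13. Length centring subtracted the median of each of 20 length bins. Alternatives were pseudocounts of 0.1 and 5, a minimum of 5 FPKM, no minimum, median and total scaling, a 4-fold threshold, q under 0.01 and length centring, the last added after the data were seen. No protein sequences were used, so a planned feature, the signal peptide, was not run. Python 3.11.15 with pandas 2.3.3, numpy 2.4.6 and matplotlib 3.10.9 was used, and the calculation was tested on simulated data.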

Additional observations from a re-analysis of the deposited data

Results flagged for a closer look

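A pair of gene groups had opposite directions in the purifications. Fat body markers had a median log2 of 1.721 in the fat body IP/Input, against -1.02 in the neuron and -1.36 in the glia IP/Input. The storage protein genes, 3 with a ratio and 1 of them (Lsp1alpha) kept only through the IP, had 3.2038 in the fat body, against -1.23 in the neuron and -1.47 in the glia. Both were picked out because the list's median was at least 2-fold up in the fat body and at least 2-fold down in the others. This rule used the deposited columns. Median and total scaling take up to 0.75 and up to 1.49 from the fat body log2 values, so the place of the fat body markers depends on the scaling. Single genes differed: 17 of the 20 markers rose in the fat body, and 3 rose in the glia IP/Input. Each group has 1 combined value, so the differences were not tested.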

How the results depend on the processing

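The 3056 higher genes became 1278 under median scaling, 454 under total scaling, 843 at 4-fold and 1473 with length centring, which was added after the data were seen. The 1133 lower genes became 448 at a pseudocount of 5, 2434 under median scaling, 4284 under total scaling and 157 at 4-fold. Counts stayed within 1.5 times under a pseudocount of 0.1, a minimum of 5 FPKM and no minimum, as did lower genes with length centring (1561) and the counts from the authors' q at 0.01. Under total scaling the median log2 became -0.25 for lipoprotein genes, -0.17 for cytochrome P450, -0.38 for proteasome, -0.40 for translation factor and -0.15 for respiratory chain genes. Among named genes it became -0.36 for Yp1, -0.30 for Yp2, -0.14 for Yp3, -0.39 for CG15828, -0.11 for Rfabg, -0.073 for Mio, -0.20 for bigmax, -0.31 for Thor, -0.063 for Rheb, -0.19 for Rel, -0.0060 for pll, -0.14 for tra2, -0.30 for cyc, -0.34 for Indy and -0.078 for Ef1alpha48D. No list median or named gene of at least 2-fold changed sign under median scaling, the other pseudocounts or the other minimums. Values between 0 and 0.75, such as Treh at 0.62, can turn negative under median scaling. Why the deposited columns differ in total was not tested.

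No paired analysis was possible because the deposited values combine both replicates of a group. Fits with the replicate number as a block and fits without each replicate were not run for the same reason. The depth is unknown, so how precise a low FPKM is cannot be given.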

Other observations

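Digestive enzyme genes, known from the gut, were enriched in the fat body IP at low levels. Of 16 genes of a gut list 4 passed the filter only through the IP, and the other 12 rose. The median log2 of the 16 was 2.42, 1.32 in the neuron and 0.10 in the glia IP/Input. All 20 gut list genes in the table summed to 431 FPKM in the fat body IP against 55.8 FPKM in the fat body Input. The amylase genes Amy-p (39.8 FPKM in the IP and 2.05 FPKM in the Input, 3.74) and Amy-d (31.2 and 1.78 FPKM, 3.53) led, and the trypsin genes betaTry (2.90) and alphaTry (2.79) and the protease gene Jon25Bi (2.90) followed. Amy-p and Amy-d are near-identical copies whose reads may have been split. By the authors' deposited table, 9 of the 16 were higher than in both other IPs, as were 11.0% of all genes used.

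Clock genes were divided. Of 9, 2 rose, beside 30.5% of all genes, and 3 fell, beside 11.3%. The photoreceptor protein gene cry (189 FPKM in the IP and 58.6 FPKM in the Input, 1.67) and cyc (45.7 and 20.2 FPKM, 1.14) rose, cyc becoming -0.30 under total scaling. Clk, Pdp1 and sgg fell (-1.17, -1.43 and -1.69), while the feedback repressor tim had 80.9 and 112 FPKM (-0.46). The list's median length was 4527 bases, and its median log2 of -0.46 became 0.25 with length centring. Eye pigment genes had a median of 0.22 that is negative under both scalings, against 1.08 in the neuron IP/Input. Markers of the male reproductive tract had a median of -0.76 in the fat body IP/Input, against 1.18 in the glia IP/Input.

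Several single genes were chosen after their values were seen. The acyl-CoA-binding gene Dbi had 8871 FPKM in the IP and 635 FPKM in the Input (3.80), the globin gene glob1 6294 and 548 FPKM (3.52), the aldehyde dehydrogenase gene Aldh 3486 and 317 FPKM (3.45) and the sorbitol dehydrogenase gene Sodh-1 2231 and 166 FPKM (3.74). The neighbouring capsid-like genes Arc1 and Arc2 differed, with 339 FPKM in the IP and 373 FPKM in the Input for Arc1 (-0.14) and 229 and 16.6 FPKM for Arc2 (3.71). Subunits of ATP synthase and the respiratory chain, also grouped afterwards, had a median of 1.34 in the fat body and 1.40 in the neuron IP/Input. In the authors' deposited table, which holds no unadjusted p, 0 of 35 were higher in the fat body IP than in the neuron IP. Among all genes used 13.3% were.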
